A study of Mus musculus with 14 samples.

Results

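Epas1, Hif1a, Arnt and Egln1 encode the core of the oxygen-sensing machinery, and they were followed here through the formation of the first haematopoietic stem cells in the mouse embryo. They were chosen by gene symbol. All 4 were present among the 19322 genes of the E10 single-cell table, the 19424 of the E11 single-cell table and the 19425 of the whole-cluster table. Embryos were staged as embryonic day (E)10, with 28 to 32 somite pairs, or E11, with more than 40 somite pairs, and RNA was read with CEL-Seq, which counts the 3′ ends of messenger RNAs. One series of embryos came from ICR males with the genotype Gfi+/tomato/ Gfi1b+/GFP and WT ICR females. The alleles of the males make fluorescent proteins that report the activity of Gfi1 and Gfi1b. From these embryos, 3 successive populations of the aorta-gonad-mesonephros (AGM) region were sorted at each stage. These were non-haemogenic endothelial cells (non-HE, Cdh5+ Gfi1- Gfi1b- c-kit-), haemogenic endothelial cells (HE, Cdh5+ Gfi1+ Gfi1b- c-kit-) and cells in endothelial-to-haematopoietic transition (EHT, Cdh5+ Gfi1+ Gfi1b- c-kit+). From WT C57BL/6 embryos came the cells of intra-aortic haematopoietic clusters (IAHCs, c-kit+ CD31+ at both stages and a further c-kit+ sort at E11), E11 pre-haematopoietic stem cells (pre-HSCs, c-kit+ Cdh5+, of type I or type II by CD45), c-kit+ haematopoietic stem and progenitor cells (HSPCs) of the yolk sac (YS), and whole IAHCs (wIAHCs, c-kit+) picked from embryo slices from the ventral or the dorsal side of the aorta. Aortas were cleared of blood and AGMs were pooled before sorting, so single embryos cannot be followed. Strain and genotype changed together with population between EHT cells and all IAHC, pre-HSC and YS cells, and the part of each in those differences cannot be told apart.

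Hypoxia-inducible factors are pairs of proteins. HIF-1alpha (Hif1a) or HIF-2alpha (Epas1) pairs with the partner subunit HIF-1beta (Arnt), and the pair binds short DNA elements near genes of glucose use, iron handling and blood vessel growth. The prolyl hydroxylase PHD2 (Egln1) uses oxygen to mark both alpha subunits, which are then bound by the von Hippel-Lindau protein and degraded, so their amount is set in large part after transcription. Messenger RNA, which was measured here, therefore gives no reading of HIF protein. Epas1 was first described as an endothelial factor and is known for its high expression in vascular endothelium, whereas Hif1a is expressed in most cell types.

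In GRCm38 with GENCODE M21, Epas1 lies on the plus strand at chr17:86753700-86833410, Hif1a on the plus strand at chr12:73901375-73947530, Arnt on the plus strand at chr3:95434388-95497240 and Egln1 on the minus strand at chr8:124908587-124949324. Hif1a overlaps an annotated antisense gene, Gm15283, and a gene on its own strand, Gm49321. Epas1 and Arnt each hold a small gene on their own strand, AC096777.1 and the processed pseudogene Gm42672. Whether the authors counted reads by strand is not given in the sources used here, so reads of these loci may not be fully separable. The RefSeq promoter table of build GRCm38.p6 (250 bases before to 50 after a start) held 3 of the 4 members, Hif1a, Arnt and Egln1. Each of these 3 promoters carried the core letters of the hypoxia response element, ACGTG or GCGTG on either strand. They are shown first since a HIF-binding element near a member of the pathway is the sequence by which the pathway could act on its own genes, with the matching letters in capitals, together with the promoters of 4 hypoxia-responsive genes whose levels differed between HE and EHT cells at both stages (Cited2, Vegfa, Edn1 and Ddit4, described further on). All are read 5′ to 3′ on the strand of the gene.
Hif1a, chr12:73907712-73907821, plus strand: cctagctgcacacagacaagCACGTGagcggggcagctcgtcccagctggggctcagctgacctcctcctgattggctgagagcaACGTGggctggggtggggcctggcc
Arnt, chr3:95434341-95434385, plus strand: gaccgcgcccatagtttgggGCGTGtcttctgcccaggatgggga
Egln1, chr8:124949298-124949400, minus strand: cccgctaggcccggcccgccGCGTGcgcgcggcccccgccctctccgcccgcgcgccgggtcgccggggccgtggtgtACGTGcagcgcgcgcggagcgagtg
Cited2, chr10:17723064-17723092, plus strand: cagccgctgcgCACGTGcagcgcggactc
Vegfa, chr17:46025358-46025386, minus strand: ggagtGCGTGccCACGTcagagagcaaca
Edn1, chr13:42301485-42301513, plus strand: tatctctggctgCACGTtgcctgtgggtg
Ddit4, chr10:59951869-59951897, minus strand: gacctggaggggGCGTGgcctcgccggga

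Positions count from the RefSeq start of each entry, which for Hif1a lies downstream of the start of the GENCODE gene given above, within its span. The Egln1 promoter matched at 68 bases before its start and once more further upstream, the Hif1a promoter at 134 and at 70 bases before its start, and the Arnt promoter at 29 bases before its start. The distal Hif1a match and the Cited2 match read CACGTG, a palindrome that holds ACGTG on both strands and is also the letters of an E-box. The Vegfa stretch comes from the second of its 2 promoter entries, and the first held no match. Such letters are common. Of 32851 promoters of this length, 43.8% held ACGTG or GCGTG on either strand. Among vascular genes described further on, whose promoters are not shown, Flt1, Kdr and Dll4 held a match. Tek and Eng held none, and Cdh5 had no entry. The matches are a description of the sequence, and binding was not measured here.

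The single-cell tables hold 546 E10 cells in 5 populations and 575 E11 cells in 8, each cell reduced by the authors to 3000 transcripts at E10 and 5000 at E11. Each population comes from 1 deposited sample and is made of 1 to 5 sorted sets. Both kinds of pre-HSC were deposited together as 1 sample. No test across samples was therefore possible, and levels are given with 95% counting intervals, which cover counting error only. The summed level of 10 endothelial markers was 33.3 transcripts per cell in E10 non-HE, 21.8 in HE, 9.02 in EHT, 6.74 in IAHC and 1.07 in YS cells, and 10 haematopoietic markers ran the other way within the aorta, from 0.302 in non-HE to 11.9 in IAHC cells, and were at 9.50 in YS cells. Of the 10 haematopoietic markers, 8 had transcripts in E10 non-HE cells and 4 in E11 non-HE cells, Kit among the 4. At 0 in E11 non-HE cells were Gfi1, Myb, Ptprc, Rac2, Runx1 and Sfpi1. All 8 of 8 macrophage markers were at 0 in non-HE cells of both stages. Column names give finer ages, and the labels were followed for the stage. The E10 non-HE cells are named as early E11, HE cells as E10.5, 1 of 3 EHT sets as E10.5 and the others as late E10. At E11, HE, EHT and 1 of 2 non-HE sets are named as late E11 and the other non-HE set as E11.5, so populations of 1 stage can differ in age.

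Epas1 was a gene of the aortic endothelium, present in most non-HE and HE cells, in a minority of EHT cells at E10 and in few cells of the clusters and the yolk sac. At E10, its level was 3.02 transcripts per cell in non-HE cells (95% interval 2.53 to 3.59), with transcripts in 32 of 43 cells. HE cells held 2.38 per cell (2.08 to 2.70), in 82 of 98 cells. EHT cells held 0.440 per cell (0.351 to 0.544), in 45 of 191 cells. IAHC cells held 0.0822 per cell, from 6 transcripts in 5 of 73 cells, and YS HSPCs held 0.00709 per cell, from 1 transcript in 141 cells. The order of levels was thus non-HE, HE, EHT, IAHC and YS, with non-HE and HE cells close to each other and every later step lower.

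The sorted sets of one population gave similar Epas1 levels in non-HE cells and less similar ones elsewhere. The 2 sets of E10 non-HE cells held 3.04 and 3.0 transcripts per cell and those of E11 non-HE cells 3.55 and 3.58. The 2 sets of E10 HE cells held 2.89 and 2.07, and the 3 sets of E10 EHT cells held 0.344, 0.400 and 0.529. The highest EHT set was thus below the lowest HE set.

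At E11, the order differed in its first places. HE cells had the highest Epas1 level of all populations, 6.59 transcripts per cell (5.87 to 7.37), with transcripts in 46 of 46 cells and up to 19 in 1 cell. Non-HE cells held 3.57 per cell (2.92 to 4.31), in 25 of 30 cells. EHT cells held 1.4 per cell (1.09 to 1.8), in 23 of 46 cells and with a maximum of 13. The level was 0.328 in c-kit+ CD31+ IAHC cells (0.254 to 0.418), then 0.177 for type I pre-HSCs (0.0885 to 0.317), 0.169 for c-kit+ IAHC cells, 0.0727 for type II pre-HSCs and 0.0435 for YS HSPCs. The last 4 of these rest on 2 to 15 transcripts each and their intervals overlap with those of their neighbours.

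**Figure D1:**
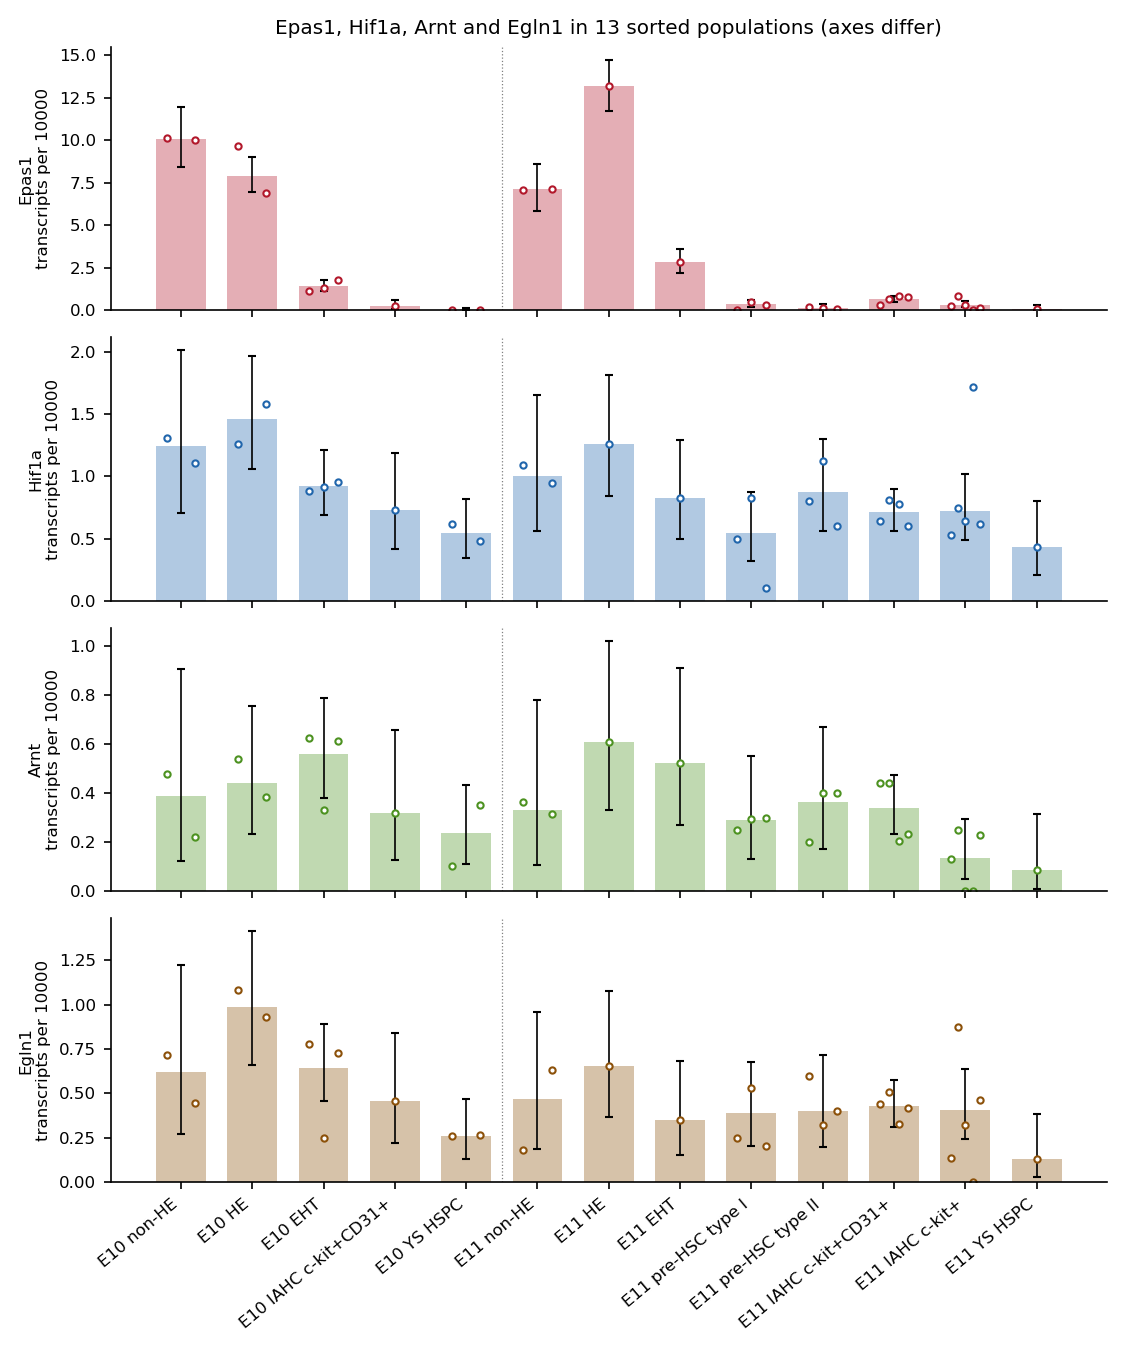
Levels of Epas1, Hif1a, Arnt and Egln1 in the 13 populations, in transcripts per 10000 so that both stages share a scale, which differs between panels. Bars are means over cells, lines are 95% counting intervals and circles are sorted sets. Epas1 stands at 13.2 in E11 HE cells and below 1 in all IAHC, pre-HSC and YS populations, while the other 3 genes stay below 2 in every population mean.

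Between HE and EHT cells, the Epas1 level was 5.41-fold lower at E10 and 4.66-fold lower at E11. At E10, the log2 ratio of EHT over HE was -2.43 (95% interval -2.81 to -2.07), and the E11 ratio was -2.22 (-2.63 to -1.83). Among genes with at least 20 transcripts in both populations together, 9.22% of 7268 genes were lower in EHT cells by at least 2-fold at E10 and 764 genes were higher, and at E11 14.1% of 4731 genes were lower and 412 genes higher. Epas1 was past this ratio at both stages, and Hif1a, Arnt and Egln1 were not. In the E10.5 sets alone, the Epas1 log2 ratio was -2.79 (-3.49 to -2.16). Leaving out any sorted set at E10 kept the Epas1 log2 ratio between -2.72 and -2.23. At E11, HE and EHT cells are 1 sorted set each, so no set could be left out. The E11 ratio was -2.16 without cells with 4 or more macrophage markers and -2.08 with cells reduced to 3000 transcripts. At E10, leaving out such macrophage-marker cells did not change the ratio, so it was no check there. The summed endothelial markers were lower in the same comparison, at 9.02 against 21.8 per cell at E10 and 18.1 against 44.4 at E11, and Cdh5, which is among them, was part of the sorting gate.

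By mean level, the endothelial populations themselves stood in opposite orders at the 2 stages. The 2 sets of E10 HE cells, at 2.89 and 2.07 per cell, lay further apart than E10 HE and non-HE cells did. At E10, Epas1 was lower in HE than in non-HE cells, with a log2 ratio of -0.35 (-0.66 to -0.03), which ranged from -0.55 to -0.06 when either set of either population was left out. At E11, it was higher in HE than in non-HE cells by 0.89 (0.56 to 1.2), and by 0.88 to 0.89 when 1 set of non-HE cells was left out. The E11 HE cells are 1 sorted set, so that range does not cover the spread between sets of HE cells. Neither ratio reached 2, which 15.5% of genes did at E10 and 12.4% at E11, although with E11 cells reduced to 3000 transcripts the E11 log2 ratio was 1.06, just past it. Endothelial marker sums followed the same order, at 21.8 in HE against 33.3 in non-HE cells at E10 and 44.4 against 37.7 at E11, and their part in the Epas1 difference was not tested.

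Stages were compared after E11 cells were reduced to 3000 transcripts by random draws. Epas1 was then 1.66-fold higher in E11 than in E10 HE cells (3.96 against 2.38 per cell, log2 ratio 0.73, 0.45 to 1.02), 2.13-fold higher in EHT cells (0.935 against 0.440, log2 ratio 1.09, 0.52 to 1.63) and 1.59-fold lower in non-HE cells (1.9 against 3.02, log2 ratio -0.67, -1.15 to -0.21). In IAHC cells the log2 ratio was 1.16, with an interval from -0.09 to 2.70. The EHT and IAHC ratios were past 2, the latter from 6 transcripts at E10, as were those of 22.2% and 14.3% of genes, and in HE and non-HE cells 20.3% and 14% of genes were past it. At the deposited depths, with levels per 10000 transcripts, the EHT ratio was 1.93 and thus not past 2, the IAHC ratio was 2.40 and past it, and HE cells stayed at 1.66. The median log2 ratio over all genes was below 0 in each of these comparisons, at -0.24 in HE, -0.35 in EHT and -0.16 in non-HE cells, so Epas1 stood further above the median gene in HE and EHT cells than its ratio alone. At equal depth the endothelial marker sum was 26 in E11 and 21.8 in E10 HE cells, and 10.9 against 9.02 in EHT cells.

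**Figure D2:**
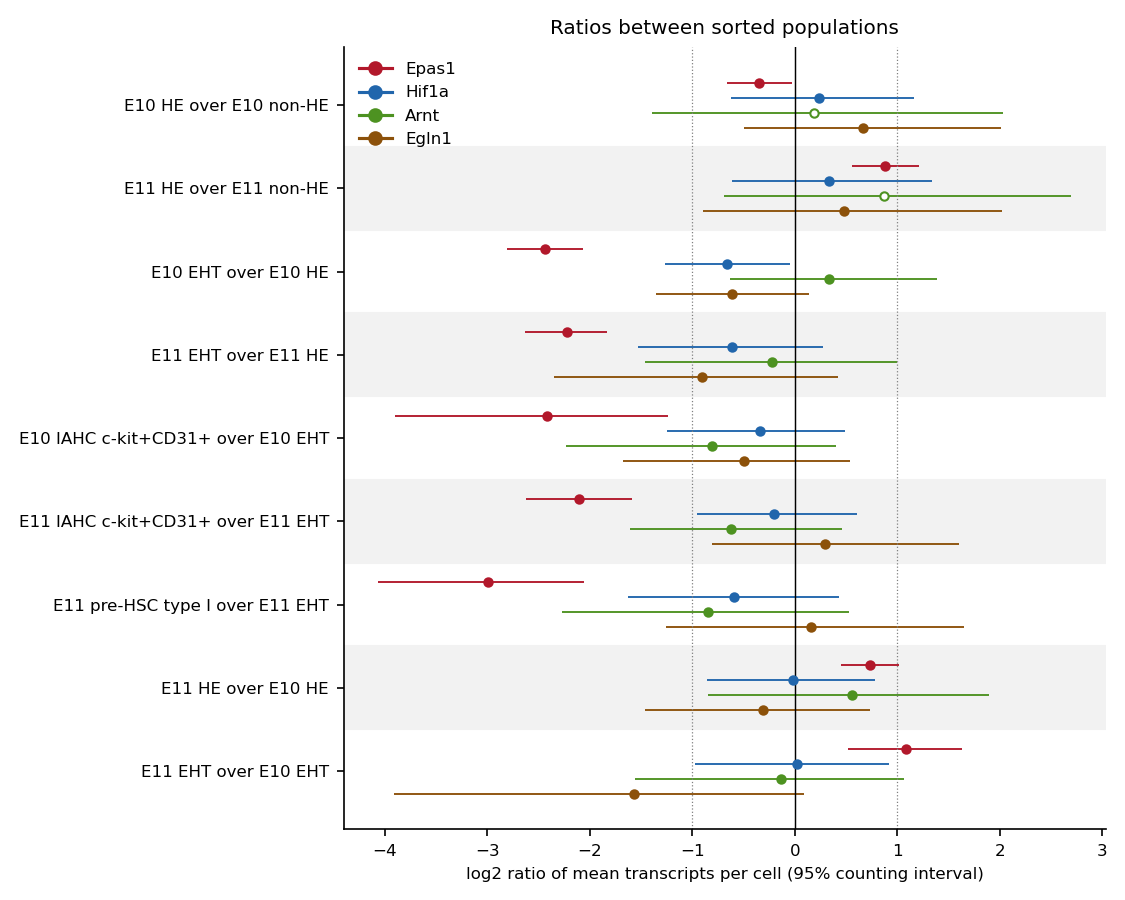
Log2 ratios of mean transcripts per cell between populations for the 4 genes, with 95% counting intervals. Open points have fewer than 20 transcripts in both populations together, and dotted lines mark a 2-fold ratio. Epas1 lies beyond -2 in each step from HE to EHT and from EHT to IAHC cells, where the intervals of Hif1a, Arnt and Egln1 are all above -2.4.

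From EHT to cluster cells, Epas1 was lower again, by 5.35-fold at E10 (log2 ratio -2.42, -3.91 to -1.24) and by 4.30-fold at E11 (-2.11, -2.62 to -1.59), while 21.3% and 26.7% of genes were past a ratio of 2. Type I pre-HSCs were 7.96-fold below EHT cells (log2 ratio -2.99, -4.06 to -2.06), against 20% of genes past 2. Without the largest of the 3 type I sets, which was at 0.235 per cell, the type I level was 0.107, from 3 transcripts in 28 cells. Type II pre-HSCs held 4 Epas1 transcripts in 55 cells against 11 in 62 cells of type I, too few for a ratio, which 7.52% of genes passed. Within E11 clusters, the 4 sets of c-kit+ CD31+ cells ranged from 0.160 to 0.429 transcripts per cell and the 5 smaller sets of c-kit+ cells from 0 to 0.438. The ratio of c-kit+ to c-kit+ CD31+ cells was -0.96 on the log2 scale (-1.88 to -0.14), below 2-fold, which 10.6% of genes reached. Of the 15 transcripts in c-kit+ cells, 7 came from 1 set of 16 cells, with 6 of them in 1 cell. The place of the ratio below 2-fold depends on that set. The deposited IAHC cells are close in number to those the study kept after purifying them by their transcripts. A stricter filter, in which the same kind of rule (more than 1 Gpr56 transcript and at most 2 of any of a list of genes of other cells) was applied to the reduced counts, does not give the study's selection. In the cells that pass this filter, Epas1 was at 0.236 per cell in 140 c-kit+ CD31+ cells and at 0.0426 in 47 c-kit+ cells, where 2 transcripts remained. Their log2 ratio was then -2.47 (-5.57 to -0.50), past 2-fold.

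YS HSPCs, a haematopoietic population formed outside the aorta, held the lowest mean at E10. At E11 they and type II pre-HSCs could not be ordered, since YS cells were lower at the deposited depth and type II pre-HSCs, with 0 transcripts in 55 cells, at 3000 transcripts. E11 YS cells held 2 Epas1 transcripts in 46 cells, 7.55-fold less per cell than c-kit+ CD31+ IAHC cells (log2 ratio -2.92, -5.99 to -1.01), and 23.4% of genes were past 2 in that comparison. At E10, 1 transcript in YS and 6 in IAHC cells were too few for a ratio, which 18.9% of genes passed. Of the 10 endothelial markers, Cldn5 and Kdr were at 0 in E10 YS cells and the list summed to 1.07 per cell, with 4 Cdh5 transcripts. Of the 2 E11 YS cells with Epas1, 1 had an endothelial marker sum of 29 and the other of 3, against a median of 2 in the 44 cells without it.

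Epas1 was unevenly spread among cells of one population. In E10 HE cells, 16 cells had 0 transcripts, 22 had 1, 47 had 2 to 4 and 13 had 5 or more. In E11 HE cells, 33 of 46 had 5 or more. In E11 EHT cells, 23 had 0, 12 had 1, 7 had 2 to 4 and 4 had 5 or more. Of 201 E11 c-kit+ CD31+ IAHC cells, 160 had 0 and 1 had 5 or more.

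**Figure D3:**
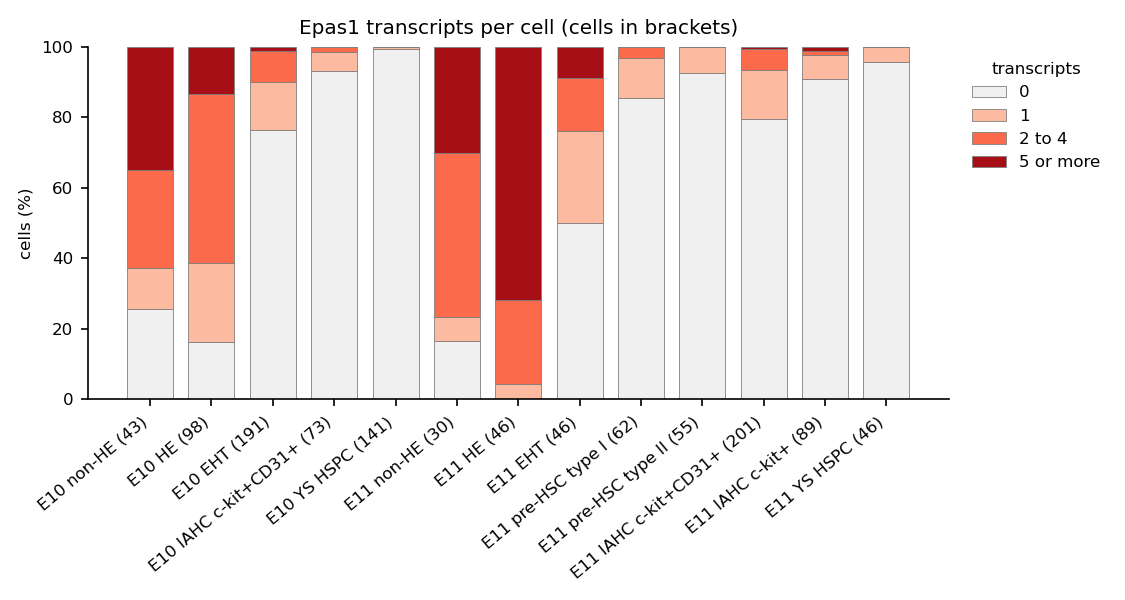
Share of cells, in percent, with 0, 1, 2 to 4 or 5 or more Epas1 transcripts in each population, with the number of cells in brackets. Cells hold 3000 transcripts at E10 and 5000 at E11, so shares are comparable within a stage. Cells with 5 or more make up 33 of 46 E11 HE cells and 2 of 191 E10 EHT cells.

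In EHT cells, those with Epas1 were the more endothelial ones by their other genes. At E10, the median sum of endothelial markers was 14 in the 45 EHT cells with an Epas1 transcript and 6 in the 146 without, and that of haematopoietic markers was 6 against 10. At E11, the medians were 26 and 9 for endothelial markers and 6 and 14 for haematopoietic markers, in 23 cells each. Kit, the receptor used for sorting, stood at 0.867 per cell with and 1.4 without Epas1 at E10, and at 1.04 and 2.26 at E11, whereas Runx1, the transcription factor required for the transition, was closer, at 0.644 and 0.760 at E10 and 0.783 and 0.870 at E11. Macrophage markers also differed in E11 EHT cells, with a mean sum of 1.17 (up to 10) with and 3.43 (up to 38) without Epas1, and their part in these differences was not tested. The endothelial difference was also present in E11 c-kit+ CD31+ IAHC cells, with medians of 19 in 41 cells and 10 in 160 cells. Cells of 1 sample are not replicates, so these are descriptions with no test, and the ranges of the 2 kinds of cells overlapped in each of these populations.

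**Figure D4:**
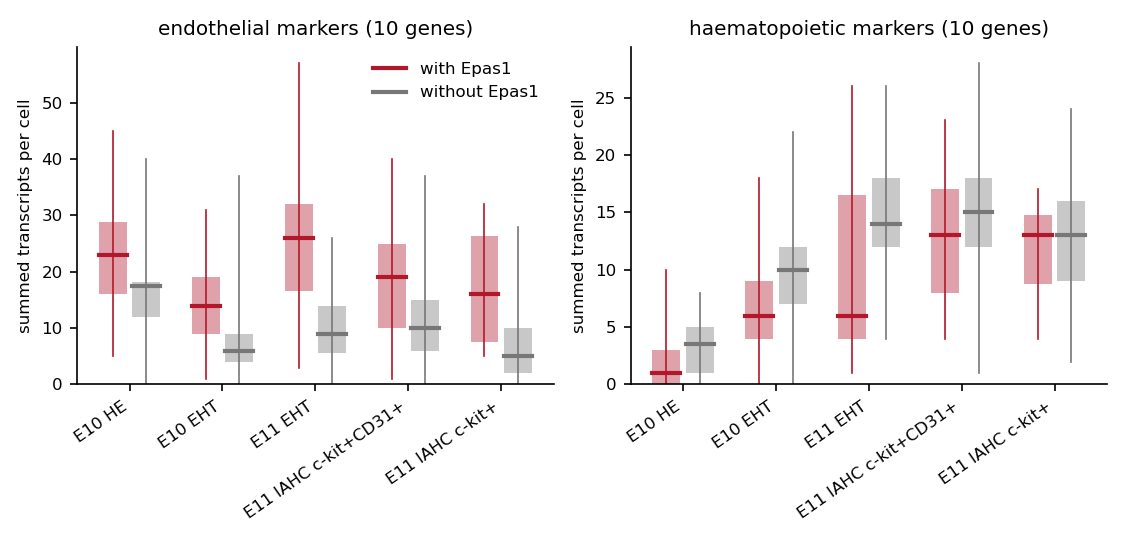
Summed transcripts per cell of 10 endothelial (left) and 10 haematopoietic (right) markers in cells with and without an Epas1 transcript. Thick lines are medians, boxes span the quartiles and thin lines the range. In E11 EHT cells the endothelial medians are 26 and 9 and the haematopoietic medians 6 and 14.

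Hif1a, the other oxygen-regulated alpha subunit, was found at a low level in all populations. It ran from 0.163 transcripts per cell in YS HSPCs (0.103 to 0.245) to 0.439 in HE cells (0.318 to 0.591) at E10, and from 0.217 in YS HSPCs to 0.630 in HE cells (0.422 to 0.905) at E11. Between these ends, E10 non-HE cells held 0.372, EHT cells 0.277 and IAHC cells 0.219, and E11 non-HE cells held 0.50, type II pre-HSCs 0.436, EHT cells 0.413, both IAHC sorts 0.36 and type I pre-HSCs 0.274. Neighbours in either order had overlapping intervals. The sets of type I pre-HSCs were at 0.25, 0.412 and 0.05, and without the second the level was 0.107, from 3 transcripts in 28 cells. Those of type II were at 0.4, 0.56 and 0.3, each above the type I set of the same number, which was not tested. None of the ratios computed here, between successive or related populations of a stage and between stages of a population, reached 2-fold for Hif1a. They include E11 against E10 YS HSPCs, where 25.2% of genes did. The ends of each range, HE cells and YS HSPCs, were further apart but were not among these ratios. For EHT over HE cells the log2 ratio was -0.66 at E10 (-1.27 to -0.05) and -0.61 at E11 (-1.53 to 0.27), and for E11 over E10 HE cells it was -0.01 (-0.86 to 0.78).

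The balance of the transcripts of the 2 alpha subunits therefore differed between populations. CEL-Seq counts 1 tag per transcript end, so levels of these genes were set side by side without a length correction. At E11, 303 Epas1 and 29 Hif1a transcripts were counted over the HE cells and 65 against 19 over the EHT cells, while the c-kit+ CD31+ IAHC cells gave 66 against 72, the type II pre-HSCs 4 against 24 and the YS HSPCs 2 against 10. The E10 HE cells gave 233 against 43, the EHT cells 84 against 53, the IAHC cells 6 against 16 and the YS HSPCs 1 against 23. Epas1 transcripts were thus the more numerous in non-HE, HE and EHT cells and Hif1a transcripts in the type II pre-HSCs, YS, E10 IAHC and E11 c-kit+ IAHC cells, whereas the counts were too close to order in E11 c-kit+ CD31+ IAHC cells and in type I pre-HSCs, with 11 Epas1 and 17 Hif1a transcripts. Whether both transcripts were seen in 1 cell varied between populations. Hif1a was seen in 31 of 82 E10 HE cells with Epas1 (37.8%) and in 6 of 16 without (37.5%), and in 11 of 45 (24.4%) and 36 of 146 (24.7%) E10 EHT cells. It was seen in 13 of 41 E11 c-kit+ CD31+ IAHC cells with Epas1 (31.7%) and 44 of 160 without (27.5%). The shares differed more where few cells held Epas1 or few lacked it, at 4 of 9 and 9 of 53 type I pre-HSCs, 2 of 5 and 13 of 68 E10 IAHC cells, and 11 of 25 and 0 of 5 E11 non-HE cells. In E11 EHT cells it was seen in 6 of 23 with and 9 of 23 without Epas1.

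Arnt, the shared partner subunit, was sparser still. Its level was between 0.0709 transcripts per cell in YS HSPCs and 0.168 in EHT cells (0.115 to 0.237) at E10, and between 0.0435 in YS HSPCs and 0.304 in HE cells (0.166 to 0.511) at E11. EHT over HE gave log2 ratios of 0.34 (-0.63 to 1.4) and -0.22 (-1.47 to 1.00), so its direction was not resolved. Among the ratios computed here with at least 20 transcripts, Arnt passed 2-fold in 2. It was lower in c-kit+ than in c-kit+ CD31+ IAHC cells at E11 (log2 ratio -1.33, -2.87 to -0.06, from 6 and 34 transcripts). It was also lower in E11 YS than in c-kit+ CD31+ IAHC cells (-1.96, -5.06 to 0.00, from 2 and 34 transcripts). In these comparisons, 10.6% and 23.4% of genes were past 2. Among IAHC cells that pass the stricter filter, the first of these was no longer past 2-fold (log2 ratio -0.80, -2.54 to 0.60, from 5 and 26 transcripts) and the second still was (-2.09).

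Egln1, the oxygen sensor, was highest in HE cells at both stages, at 0.296 per cell (0.198 to 0.425) at E10 and 0.326 (0.183 to 0.538) at E11, and lowest in YS HSPCs, at 0.0780 and 0.0652. EHT over HE gave log2 ratios of -0.61 (-1.35 to 0.14) and -0.91 (-2.35 to 0.42). In E11 YS cells it was below the c-kit+ CD31+ IAHC level by more than 2-fold (log2 ratio -1.71, -4.05 to -0.07), and at equal depth in E11 below E10 EHT cells (-1.57, -3.91 to 0.09, from 3 and 37 transcripts), against 23.4% and 22.2% of genes past 2. At the deposited depths, per 10000 transcripts, the latter was 1.86-fold lower and not past 2. Between HE and EHT cells at E11, it was past 2-fold without cells with 4 or more macrophage markers (log2 ratio -1.04).

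The other genes of oxygen sensing did not follow Epas1 as a group from HE to EHT cells. Of 20 genes of HIF subunits and oxygen sensing in the tables, 17 had enough transcripts at E10, and 2 were past 2-fold higher and 2 past 2-fold lower, with a median log2 ratio of 0.16 against 0.07 for all genes. At E11, 15 had enough, 2 were higher and 1 lower, with a median of -0.11 against -0.07. Epas1 is itself in this list and is the 1 lower at E11 and 1 of the 2 lower at E10. Of all genes tested, 9.22% and 14.1% were lower, and 764 of 7268 and 412 of 4731 were higher. Besides Epas1, Cited2 was past the ratio at both stages. Cited2, a HIF-inducible competitor for the CBP and p300 coactivators, was higher in EHT than in HE cells, at 0.361 against 0.112 per cell at E10 (log2 ratio 1.7, 0.76 to 2.8) and 0.348 against 0.0870 at E11 (2.00, 0.37 to 4.04).

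Genes of glucose uptake and glycolysis, the classical HIF-1 response, were seldom past 2-fold between HE and EHT cells. Of 15 with enough transcripts at E10 and 12 at E11, 0 were past 2-fold lower and 1 was past 2-fold higher at each stage, Hk2 at E10 and Gapdh at E11. These counts are near those of all genes, of which 9.22% and 14.1% were lower and 764 of 7268 and 412 of 4731 higher. Their median log2 ratios were 0.52 and 0.54, against 0.07 and -0.07 for all genes. Ldha, lactate dehydrogenase A, was at 3.68 against 2.22 per cell at E10 (log2 ratio 0.73, 0.51 to 0.95) and at 3.54 against 1.89 at E11 (0.91, 0.52 to 1.3). The direction of Ldha was the opposite of that of Epas1.

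Of the other hypoxia response genes, 5 of 15 were past 2-fold lower and 2 higher in EHT cells at E10, and 3 of 9 were lower and 0 higher at E11, while 9.22% and 14.1% of all genes were lower. The 3 that were lower at both stages were Vegfa, the vascular growth factor, Edn1, the endothelial peptide endothelin-1, and Ddit4, an inhibitor of mTORC1. Edn1 was at 0.105 against 0.786 per cell at E10 and 0.587 against 2.5 at E11 (log2 ratios -2.91 and -2.09). Ddit4 was at 0.0524 against 0.184 and at 0.174 against 0.565 (-1.81 and -1.70). Vegfa was at 0.0524 against 0.163 at E10 (-1.64, -2.94 to -0.41) and at 0.0652 against 1.04 at E11 (-4.0, -6.33 to -2.37, from 3 and 48 transcripts). Vegfa also differed between HE and non-HE cells in opposite directions, lower in HE at E10 (log2 ratio -1.58, -2.62 to -0.57) and higher in HE at E11 (2.16, 1.0 to 3.55), the same order as Epas1. Of 10 genes of this list with enough transcripts there, 0 were past 2-fold higher in HE cells and 3 lower at E10. At E11, 1 of 10 was higher and 1 lower. Of all genes, 15.5% at E10 and 12.4% at E11 were past 2-fold in either direction.

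Of the vascular genes that have been named as HIF-2 targets, 7 had enough transcripts at both stages. Their median log2 ratios of EHT over HE cells were -1.75 and -1.64. The medians of all genes were 0.07 and -0.07, and 9.22% and 14.1% of all genes were past 2-fold lower. Of the 7, 6 were past 2-fold lower at both stages. These were the VEGF receptors Flt1 (-2.44 and -1.64) and Kdr (-1.75 and -2.04), the Notch ligand Dll4 (-1.88 and -1.87), the angiopoietin receptor Tek (-1.81 and -1.44), the TGF-beta co-receptor Eng (-1.03 and -1.87) and the adhesion molecule Cdh5 (-1.13 and -1.15). The seventh, Ephb4, was at -0.82 and -0.69, and Angpt2 had too few transcripts. Cdh5, Kdr and Tek are also among the endothelial markers, Cdh5 was a sorting marker, and the paper counts Eng among endothelial transcripts. The summed endothelial markers were lower in the same step, at 9.02 against 21.8 per cell at E10 and 18.1 against 44.4 at E11. The part of a general endothelial difference in these ratios was not tested.

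The genes most like Epas1 across the 13 populations, by Pearson's r of log2 levels at 3000 transcripts among 2471 genes, were Icam2, an adhesion molecule of endothelium (r = 0.986), Nos3, endothelial nitric oxide synthase (0.986), Fbn1, fibrillin-1 (0.986), and the endothelial transcription factors Sox17 (0.984) and Sox7 (0.983). Nos3, for example, was at 1.33 transcripts per cell in E11 HE cells, 0.348 in EHT cells and 0 in both YS populations. With a pseudocount of 0.5 in place of 0.1, 1 of these 5 genes, Icam2, was still among the first 5. The genes most like Hif1a were Ptk2 (0.978), Myzap (0.958), Atp7a (0.957), Sept2 (0.953) and Notch3 (0.953), of which 2 stayed among the first 5 under that pseudocount and 2 under a lower minimum level. Epas1 and Hif1a had an r of 0.905 with each other, Epas1 and Egln1 0.638, Epas1 and Arnt 0.559. The 13 points share a cell source or depth within stages and include populations with few transcripts, and r is given as a description.

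In wIAHCs, each library pools the cells of 1 picked cluster, so that fewer cells of a type and less RNA per cell cannot be told apart. Of 109 libraries, 57 with at least 5000 transcripts were used (7 dorsal and 21 ventral at E10, 12 dorsal and 17 ventral at E11), with 5099 to 115328 transcripts each. By the column names, E10 libraries come from 1 collection and E11 libraries from 2, the first with 6 dorsal and 4 ventral libraries and the second with 6 and 13, so stage and collection cannot be told apart. The collections stood apart in erythroid markers, which were at 0 to 5.41 per 10000 at E10, at 0.73 to 16.5 in the first E11 collection and at 18.3 to 2637 in the second, with 4 libraries above 500. All 4 members were too low for the filter on low counts, which 260 genes passed, so their values come from the fit without a filter over 13627 genes.

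Epas1 was seen in few whole clusters, and most of its transcripts at E11 came from the dorsal side. In E11 dorsal clusters, 4 of 12 libraries held it, at 0.581, 1.72, 1.94 and 4.91 transcripts per 10000, from 11 transcripts in all, and the other 8 were at 0. In E11 ventral clusters, 3 of 17 libraries held 1 transcript each and the highest was at 0.812 per 10000. In E10 ventral clusters, 6 of 21 libraries held it, up to 1.17 per 10000, and in E10 dorsal clusters 2 of 7, at 0.371 and 1.08. The median was 0 in all 4 groups and their ranges overlapped.

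By edgeR's quasi-likelihood test, the log2 fold change of Epas1 in ventral against dorsal clusters at E11 was -2.24 (SE 0.66, Benjamini-Hochberg adjusted p = 0.178), which did not pass the threshold of 0.05, and 0.0881% of genes did. E11 against E10 gave 1.95 on the dorsal side (SE 0.80, adjusted p = 0.283 by edgeR) and -0.40 on the ventral side (SE 0.62, adjusted p = 0.808), against 0.785% and 2.27% of genes past the threshold, and the interaction of stage and side was -2.35 (SE 1.06, adjusted p = 0.673). Without the dorsal library at 1.94 per 10000, the E11 difference between sides was -1.73 with an edgeR adjusted p of 0.436, and without the one at 4.91 it was -1.88 with 0.429, where the adjusted p ranged from 0.139 to 0.899 over all alternatives. Within the E11 collections, the difference between sides was -0.82 in the first (edgeR adjusted p = 0.899), and in the second all 13 ventral libraries were at 0, so no fold is given (edgeR adjusted p = 0.540). With libraries of at least 2000 transcripts, the E11 difference between sides was -1.36 (edgeR adjusted p = 0.464). With at least 10000 it was -2.55 (adjusted p = 0.345 by edgeR). The ventral difference between stages was 0.93 with the first E11 collection alone, which held all 3 E11 ventral libraries with Epas1. Endothelial markers were also higher in E11 dorsal than ventral clusters, with medians of 21.4 and 12.2 per 10000 (ranges 0 to 34.6 and 1.6 to 22), as were mesenchymal markers, with medians of 3.89 and 2.34. The part of these in the Epas1 values was not tested.

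**Figure D5:**
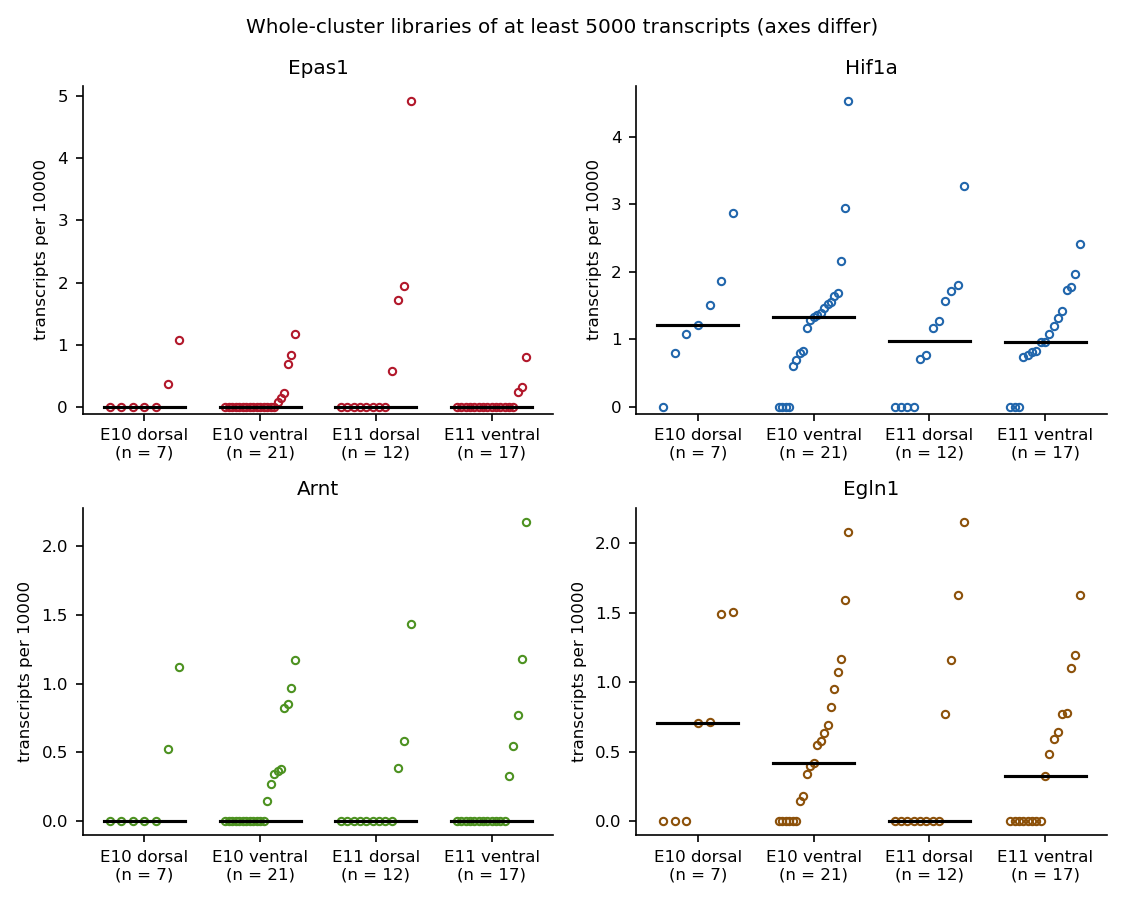
Transcripts per 10000 of the 4 genes in each wIAHC library with at least 5000 transcripts, by stage and side, on axes that differ between panels. Circles are libraries and bars are medians. The median of Epas1 is 0 in all 4 groups, with 1 E11 dorsal library at 4.91, while that of Hif1a lies between 0.965 and 1.34.

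Hif1a was the most widely detected member in wIAHCs. On the ventral side, 17 of 21 libraries held it at E10 and 14 of 17 at E11, and on the dorsal side 6 of 7 and 8 of 12, with medians of 1.34, 0.965, 1.2 and 0.968 per 10000. The highest libraries were at 4.52, 2.41, 2.87 and 3.27 and the groups overlapped over nearly their whole ranges. Egln1 had medians of 0.417, 0.327, 0.705 and 0 in the same order, and Arnt a median of 0 in all 4. For Hif1a, E11 against E10 gave a log2 fold change of -0.41 (SE 0.37, adjusted p = 0.636 by edgeR) on the ventral side and -0.81 (SE 0.62, adjusted p = 0.601) on the dorsal side. Arnt and Egln1 had adjusted p-values from 0.699 to 1 over the 5 contrasts. Between the sides at E10 and for the interaction, 0.0587% and 0.154% of genes passed the threshold in this fit.

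Among genes of the pathway lists that passed the filter, several were lower at E11 on the ventral side. There, 81 of 260 genes (31.2%) passed the threshold by edgeR, 47 higher and 34 lower (13.1%). Of 4 genes of glycolysis tested, 3 fell, Ldha by 0.91 on the log2 scale (SE 0.19, adjusted p = 0.000115), Aldoa, a glycolytic aldolase, by 0.71 (SE 0.27, adjusted p = 0.0350) and Pkm, pyruvate kinase, by 0.66 (SE 0.23, adjusted p = 0.0222), and Gapdh was at -0.20 (adjusted p = 0.351). Of 2 genes of oxygen sensing tested, Hsp90aa1, a chaperone that binds HIF-1alpha, fell by 0.45 (SE 0.15, adjusted p = 0.0173) and Hsp90ab1 was at -0.05. On the dorsal side, 24 of 260 genes (9.23%) passed and 0 of these 6 did, with Pkm at -0.98 (adjusted p = 0.0608 by edgeR) and Ldha at -0.80 (adjusted p = 0.0726). With the first E11 collection alone, 44 genes passed on the ventral side and Ldha was the only one of the 4 named genes among them (edgeR adjusted p = 0.00603), and with the second alone Ldha, Aldoa and Hsp90aa1 passed and Pkm did not (edgeR adjusted p = 0.0501). Without the 4 libraries above 500 erythroid transcripts per 10000, 81 genes passed, with all 4 named genes among them. All 4 were lower at E11 in each of these fits. Between the sides, 0 of 260 genes passed at either stage by edgeR, with 20 at E10 and 23 at E11 below an unadjusted p of 0.05, and DESeq2 also called 0.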

How the data were processed

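Per the labels and the Methods, single cells and wIAHCs were profiled by CEL-Seq, and the submitters' processing notes name BWA 0.6.2-r126 and mm10. The deposited single-cell values are estimated counts of transcripts from unique molecular identifiers (UMIs), which the authors reduced to 3000 (E10) or 5000 (E11) per cell and raised by 0.1, and the 0.1 was removed here. The deposited wIAHC table holds estimated counts too, after a correction by the authors for transcripts that share 1 of 256 UMIs, and they were rounded here. No column was left without a sample. Replicates are libraries, with no statement that they come from separate embryos, so p-values measure the spread between these libraries only.

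Population means carry exact 95% Poisson intervals and ratios exact conditional intervals (SciPy 1.17.1, NumPy 2.4.6, pandas 2.3.3). A ratio was read only with at least 20 transcripts in both populations together. E11 cells were thinned to 3000 transcripts (seed 1) for comparisons between stages. wIAHC libraries with at least 5000 transcripts were tested with edgeR 4.0.16 (quasi-likelihood, TMM, filter on low counts, 4 groups of stage and side) in R 4.3.3, without 90 spike-ins, at an adjusted p below 0.05, and with DESeq2 1.42.0 as an alternative. No member passed the filter, so the planned fit without a filter gives their values. The scripts were tested on simulated data. The 4 members, the pathway lists and the tests were chosen with earlier results of these data known. Genes were named if they were members, among the 5 most like Epas1 or Hif1a, past a ratio of 2 the same way between EHT and HE cells at both stages in a pathway list (at most 6 per list), or past the threshold in wIAHCs. Ephb4, Angpt2, Hk2, Gapdh, Hsp90ab1 and Ldha in single cells are named beside these after their values were seen.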

Additional observations from a re-analysis of the deposited data

Results flagged for a closer look

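Among the 7 E10 dorsal wIAHC libraries, 1 stood apart for Epas1, at 1.08 transcripts per 10000 against 0 to 0.371 in the other 6. Its gap to the nearest library was 0.657 of the range of the group, above Dixon's 95% critical value for 7 libraries. The value rests on 1 transcript in a library of 9276 transcripts, and the next one on 1 transcript in 27011. The gap between them thus reflects library size, and Dixon's value assumes continuous measurements, so no conclusion is drawn. Of 4 genes tested this way in this group, 1 was past the critical value, and for continuous values chance gives about 5 in 100 such groups.

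Hif1a was present in libraries below the minimum depth of the reported comparisons, of which those of at least 2000 transcripts entered an alternative only. In the 52 wIAHC libraries with fewer than 5000 transcripts, 8 held it, with 12 transcripts in all, above the 3 that a count of 0 allows. Epas1 had 3 transcripts there, all in 1 library, Egln1 had 3 and Arnt 2.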

How the results depend on the processing

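All 80 recomputed single-cell ratios of the 4 genes (20 results, under thinning to 3000, without single sorted sets or without macrophage-marker cells) stayed within the counting interval of the reported value, and 6 crossed 2-fold, of which 3 rest on at least 20 transcripts: Epas1 in E11 HE over non-HE cells when thinned (1.06), and Egln1 in E11 EHT over HE cells without macrophage-marker cells (-1.04) and in E10 HE over non-HE cells without non-HE set 1 (1.2). Leaving out macrophage-marker cells changed only the ratios of E11 EHT over HE cells. In the other comparisons it returned the reported values, so it was no check there. The log2 ratio of Epas1 in c-kit+ over c-kit+ CD31+ cells that pass the stricter filter was -2.47. For IAHC cells passing that filter, which is not the study's own selection, Epas1 was at 0.236 (c-kit+ CD31+) and 0.0426 (c-kit+) per cell. The leading r was 0.993 for Epas1 and 0.976 for Hif1a with a pseudocount of 0.5, and 0.978 for Hif1a, with other followers, under a minimum level of 0.2. In wIAHCs, without a filter 310 (ventral) and 107 (dorsal) genes differed between stages, 8 (E10) and 12 (E11) between sides and 21 by interaction. With at least 10000 transcripts, 132 ventral and 3 dorsal genes differed between stages, and 40 dorsal genes did without TMM, which shifted the median log2 fold change by -0.13 (ventral) and -0.17 (dorsal) and gave 30 higher and 56 lower on the ventral and 16 higher and 24 lower on the dorsal side. In alternatives added after seeing the data, no member passed the threshold. With libraries of at least 2000 transcripts, Epas1 turned to 0.14 for ventral E11 against E10 and Hif1a to -0.078 for sides at E10. Epas1 was then at 1.67 for dorsal E11 against E10 and -1.53 by interaction, and with at least 10000 transcripts at 2.98 and -3.23. Without TMM, Arnt turned to 0.0060 for ventral E11 against E10 and to -0.16 for sides at E11, and Egln1 to -0.13 for sides at E11. With at least 10000 transcripts, Arnt turned to -0.74 for sides at E11 and -0.14 by interaction. With the first E11 collection alone, 44 ventral genes differed between stages and 1 between sides at E11 (1 also without the 4 erythroid-rich libraries). Epas1 then turned to 0.93 for ventral E11 against E10, Arnt to -1.60 and Egln1 to -0.24 for sides at E11, and Arnt to -1.10 by interaction. With the second alone, Arnt turned to 0.12 for ventral E11 against E10, and Hif1a to -0.11 for sides at E11 and -0.23 by interaction. Without the erythroid-rich libraries, Arnt turned to 0.0095 for ventral E11 against E10 and Egln1 to -0.039 for sides at E11. The cause was not tested. Leaving out single E11 dorsal libraries kept Epas1 between sides at -2.39 to -1.73, between stages at 1.4 to 2.09 and by interaction at -2.49 to -1.82. Epas1 was at 0 in 42 of the 57 libraries, which limits these fits. No paired analysis was possible, because each population comes from 1 sample. The wIAHC numbers also run on through both sides of a collection, so that a number names 1 cluster.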
